A study of Saccharomyces cerevisiae with 8 samples.

Results

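The RNA-seq counts of DGY1743 were set against those of DGY1726, DGY1735 and DGY1741, all of them strains of the budding yeast Saccharomyces cerevisiae, over the protein-coding genes of the nuclear genome. DGY1743 contributed 2 libraries of the 8 in the series and the other strains 6. Counts on the mitochondrial genome made up a large share of the DGY1743 libraries and were near 0 in the other 3 strains. DGY1743 was chosen on this share, and all 28 mitochondrial rows were left out. The 109 rows of chromosome XI from VPS1 to the end of the chromosome, where each strain carries its own amplification, were left out as well, together with 1 transposable-element row. Of 6600 protein-coding rows 6462 remained, and 5402 of these had a mean of at least 100 counts per library and were tested.

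Each strain is a clone of the FY4 background that carries a GFP and KanMX reporter and was isolated from a population evolved under glutamine limitation. The study names DGY1743 ODIRA_B, DGY1726 Trans, DGY1735 ODIRA_A and DGY1741 ComQuad after the form of the amplification at GAP1, the gene of the general amino acid permease. DGY1743 and DGY1741 came from a later time point of the evolution than DGY1726 and DGY1735. DGY1726 carries a further amplification, on chromosome V from SAK1 to YER137C. All libraries came from glutamine-limited chemostats fed with 800 µM glutamine and 2% glucose at 30 °C, held for 24 h at a doubling time of 5.8 h. Since each strain is 1 clone, the 2 libraries of a strain share every mutation of that clone, and the p-values measure a difference between clones against the spread between their 2 cultures.

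In yeast, the subunits of the respiratory chain are encoded by both genomes. Loss or damage of mitochondrial DNA is known to be met by changes in nuclear gene expression, such as the retrograde response, in which Rtg1, Rtg2 and Rtg3 raise CIT2 and DLD3, and the pleiotropic drug response through Pdr3. In glutamine-limited chemostats, genes for alternative nitrogen sources are released from nitrogen catabolite repression through GATA transcription factors. Glycolysis feeds both fermentation to ethanol and respiration, and surplus NADH can be taken up in the making of glycerol.

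The mitochondrial share of all protein-coding counts was 13.2% and 19.2% in the DGY1743 libraries (Wilson 95% intervals 13.14% to 13.18% and 19.19% to 19.23%, counting error only), against 0.0534% to 0.0957% in the other 6. Nuclear counts after the exclusions were 9286536 and 8683612 in DGY1743 and 8725153 to 12630892 in the others, and levels are given in CPM, counts per 1000000 of this total. The a-type mating markers summed to 646 to 658 CPM in DGY1743 and 338 to 885 CPM in the other strains. The alpha-type markers summed to 49.8 to 56.8 CPM in DGY1743 and 54.2 to 76.6 CPM in the others, so that every library held more a-type than alpha-type RNA.

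Against the equally weighted mean of the other 3 strains, DGY1743 had 657 genes with a higher and 394 with a lower level (edgeR quasi-likelihood test, Benjamini-Hochberg adjusted p under 0.05), which is 12.2% and 7.29% of the genes tested and 19.5% in all. In bulk cultures, a lower level in every cell and a smaller share of expressing cells cannot be told apart. The changes were mostly small: 76 genes were higher by at least 2-fold (1.41%) and 10 lower by as much (0.185%). Both DGY1743 libraries lay above all 6 others for 561 genes (10.4%) and below all 6 for 468 (8.66%). Of the 657 higher genes 423 (7.83% of those tested) stood above every other library, and of the 394 lower genes 257 (4.76%) stood below. Tested against single strains, DGY1743 differed from DGY1726 in 1481 genes (27.4%; 14.8% higher and 12.6% lower), from DGY1735 in 1257 (23.3%; 12.4% and 10.9%) and from DGY1741 in 1121 (20.8%; 12.4% and 8.31%).

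These counts depend on which spread DGY1743 is measured against. With the 6 other libraries taken as 1 group, so that differences among those strains count as error, 81 genes were higher (1.5%) and 6 lower (0.111%), and all 87 were among the 1051. With counts summed per strain, 1 strain against 3, edgeR and the same threshold called 0 genes, with 205 at an unadjusted p under 0.05. Without DGY1743 replicate 2, 269 genes were higher and 75 lower, without DGY1741 replicate 2 460 and 220, and without DGY1735 replicate 2 627 and 601.

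First among the genes highest in DGY1743 was NDJ1 (chrXV:116396-117454, minus strand, coordinates here and below from the files' R64 annotation), which encodes a telomere protein of meiotic prophase. NDJ1 had 70.3 and 73 CPM in DGY1743, against 3.01 and 3.04 in DGY1726, 1.78 and 1.32 in DGY1735, and 4.67 and 4.02 in DGY1741, a 26.4-fold difference (log2 ratio 4.72 ± 0.14 SE, edgeR adjusted p = 1.3e-09). Its 2 libraries of DGY1743 agreed closely and stood far above all others. WSC3, the nearest tested gene downstream, was not called. SRD1, named for a role in processing ribosomal RNA precursors, had 56.3 and 59.2 CPM in DGY1743, against 6.55 and 3.33 in DGY1726, 2.25 and 1.40 in DGY1735, and 8.98 and 4.09 in DGY1741 (log2 ratio 3.90 ± 0.24 SE, edgeR adjusted p = 7.3e-07). The study describes SRD1 as disrupted by a Ty element in the FY4 background, so that what its row counts is unclear.

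PHO89 encodes a sodium-coupled phosphate transporter. It had 202 and 283 CPM in DGY1743, against 38.2 and 32.2 in DGY1726, 22.2 and 14 in DGY1735, and 7.90 and 9.68 in DGY1741 (log2 ratio 3.78 ± 0.15 SE, edgeR adjusted p = 1.7e-08), with DGY1743 above every other library and DGY1741 lowest. JLP1 encodes a dioxygenase that releases sulfite from sulfonates and lets the cell use them as a sulfur source. It had 377 and 468 CPM in DGY1743, against 46.9 and 51.8 in DGY1726, 35.8 and 49.9 in DGY1735, and 11.8 and 15.7 in DGY1741 (log2 ratio 3.78 ± 0.12 SE, edgeR adjusted p = 3.2e-09). ARO10, the decarboxylase of the Ehrlich pathway, in which aromatic and branched-chain amino acids are broken down to fusel alcohols, had 167 and 172 CPM in DGY1743, against 14 and 17.5 in DGY1726, 10.3 and 12.7 in DGY1735, and 15.4 and 9.53 in DGY1741 (log2 ratio 3.69 ± 0.14 SE, edgeR adjusted p = 9.3e-09). For both JLP1 and ARO10 the lower DGY1743 library was several times the highest library of any other strain.

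RTA1, a membrane protein whose overexpression gives resistance to 7-aminocholesterol, had 32.1 and 42.7 CPM in DGY1743, against 3.45 and 4.12 in DGY1726, 2.25 and 3.87 in DGY1735, and 2.51 and 2.52 in DGY1741 (log2 ratio 3.58 ± 0.18 SE, edgeR adjusted p = 1.5e-07). The epoxide hydrolase gene YNR064C (3.12 on the log2 scale), the small open reading frame MNC1 (2.86) and the cell wall gene NCW2 (2.83) followed. NCW2 had 92.8 and 146 CPM in DGY1743, against 16.3 and 20.2 in DGY1726, 10.7 and 10.9 in DGY1735, and 22.5 and 25.6 in DGY1741 (log2 ratio 2.83 ± 0.15 SE, edgeR adjusted p = 1.7e-07). SED1, a major cell wall glycoprotein, had 120.1 and 117 CPM in DGY1743, against 27.5 and 48.1 in DGY1726, 9.37 and 10.4 in DGY1735, and 52.9 and 45.5 in DGY1741 (log2 ratio 2.17 ± 0.16 SE, edgeR adjusted p = 2.4e-06). The branched-chain amino acid permease BAP2 (2.08 ± 0.14, SE) and the acidic amino acid permease DIP5 completed the 12 genes with the largest ratios among those called and above all other libraries, and DIP5 is described with the nitrogen genes. Of the 12, NDJ1, SRD1, PHO89, JLP1, ARO10, RTA1, YNR064C, MNC1 and NCW2 were still called with the 6 other libraries as 1 group, whereas SED1, BAP2 and DIP5 were not. NDJ1, SRD1 and RTA1 reached the minimum mean count only through their counts in DGY1743.

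**Figure D1:**
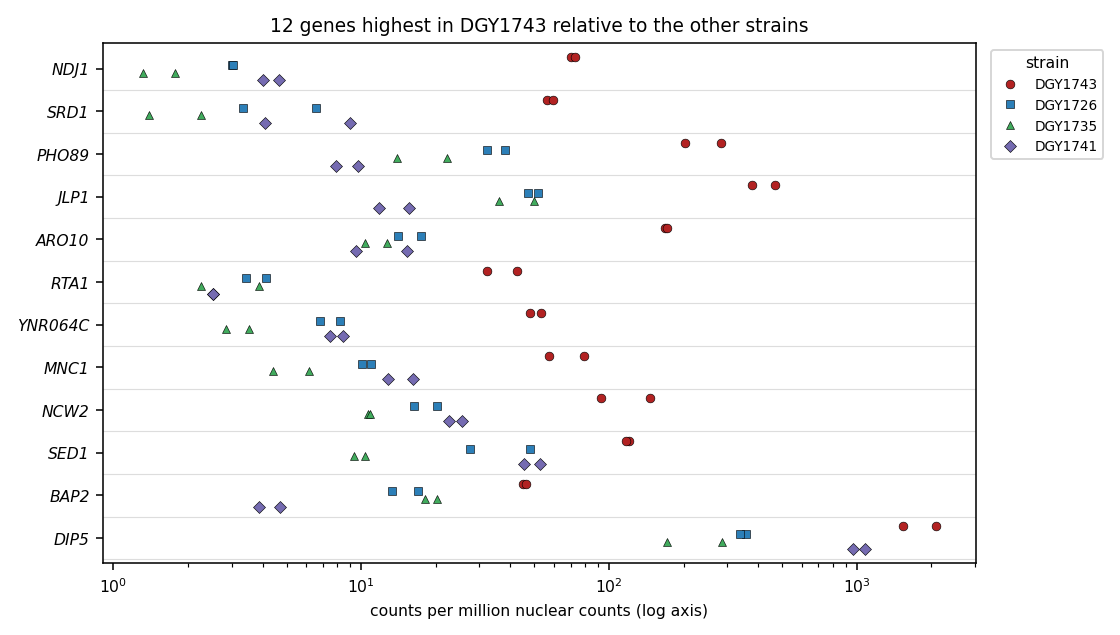
CPM over nuclear counts (log axis) in each of the 8 libraries for the 12 genes with the largest positive log2 ratio among those called and above all other libraries; each point is 1 library, coloured by strain. The red DGY1743 points lie right of every other point in each row, by the widest margin for NDJ1 (70.3 and 73.0 CPM against at most 4.67) and by the narrowest for DIP5, where DGY1741 comes next.

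A part of the genes for the uptake and use of sulfur compounds was higher in DGY1743. Of the 28 genes of sulfate assimilation and methionine, 11 were higher and none lower (12.2% and 7.29% of all tested genes). All 11 stood above every other library (7.83% of all tested genes were called higher and stood above). The median log2 ratio of the 28 was 0.27, against 0.0047 over all tested genes, and it was 0.20, 0.21 and 0.37 against DGY1726, DGY1735 and DGY1741. The largest differences were in transporters. MUP1, the high-affinity methionine permease, had 514 and 575 CPM in DGY1743, against 169 and 169 in DGY1726, 210.1 and 170.2 in DGY1735, and 116 and 103 in DGY1741 (log2 ratio 1.84 ± 0.09 SE, edgeR adjusted p = 1.5e-07). SAM3, the permease for S-adenosylmethionine, had 571 and 705 CPM in DGY1743, against 225 and 219 in DGY1726, 221 and 193 in DGY1735, and 217 and 197 in DGY1741 (log2 ratio 1.59 ± 0.10 SE, edgeR adjusted p = 6.5e-07). MHT1, which transfers a methyl group from S-methylmethionine to homocysteine, had 127 and 124 CPM in DGY1743, against 51.6 and 51.4 in DGY1726, 47.8 and 53.5 in DGY1735, and 68.2 and 59.8 in DGY1741 (log2 ratio 1.19 ± 0.09 SE, edgeR adjusted p = 4.3e-06). In all 3 genes both DGY1743 libraries stood well above the highest of the others, which for MUP1 differed among themselves, DGY1741 being lowest. The remaining 8 were MMP1, SEO1, MET32, STR3, MET14, SUL1, MET16 and MUP3, with log2 ratios of 0.33 (MUP3) to 1.17 (MMP1). MET14 is the last gene before the stretch of chromosome XI that was left out. The count was 8 without DGY1743 replicate 2 and 4 with the 6 other libraries as 1 group.

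Nitrogen genes were more often higher than lower. Of 33 genes under nitrogen catabolite repression or encoding GATA factors, 14 were higher and 2 lower, against 12.2% and 7.29% of all tested genes. Of the 14, 11 stood above all other libraries (7.83% of all tested genes were called higher and stood above). The median log2 ratio was 0.29 (0.29, 0.35 and 0.40 against DGY1726, DGY1735 and DGY1741). Without the genes of chromosome IX, 27 of the 33 remained, 9 of them higher and 1 lower, with a median of 0.16. DIP5, the permease for glutamate and aspartate, had 2087 and 1533 CPM in DGY1743, against 358 and 338 in DGY1726, 172 and 285 in DGY1735, and 1082 and 966 in DGY1741 (log2 ratio 2.06 ± 0.16 SE, edgeR adjusted p = 3.6e-06). DAL4, the allantoin permease, had 64 and 54 CPM in DGY1743, against 31.6 and 37.9 in DGY1726, 24.1 and 28 in DGY1735, and 10.1 and 8.90 in DGY1741 (log2 ratio 1.53 ± 0.12 SE, edgeR adjusted p = 7.1e-06). AGP1, a broad amino acid permease, had 129 and 130.0 CPM in DGY1743, against 94.4 and 86.9 in DGY1726, 45 and 38.4 in DGY1735, and 36.5 and 38.9 in DGY1741 (log2 ratio 1.31 ± 0.09 SE, edgeR adjusted p = 2.1e-06). The order of the other strains differed between them: DGY1741 was nearest to DGY1743 for DIP5 and farthest for DAL4. Among the rest were the proline oxidation genes PUT1 (1.28) and PUT2 (0.64), the urea transporter DUR3 (1.17) and the repressor GZF3 (0.52). DAL81, an activator of the allantoin and urea genes (-0.47), and CAR2, of arginine breakdown (-0.67), were lower. The count of higher genes was 10 without either DGY1743 library and 1 with the 6 other libraries as 1 group.

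Genes of amino acid synthesis were called in both directions. Of 60 genes of amino acid synthesis, 10 were higher and 5 lower, with a median of -0.06. Over all tested genes the shares were 12.2% and 7.29%. With the 6 other libraries as 1 group, 2 of the 60 were higher and none lower. ARO9, the aromatic aminotransferase of the catabolic direction, had 69.9 and 62.2 CPM in DGY1743, against 23.8 and 22 in DGY1726, 19.1 and 19.99 in DGY1735, and 16.8 and 12.7 in DGY1741 (log2 ratio 1.82 ± 0.12 SE, edgeR adjusted p = 1.5e-06). BAT2, its branched-chain counterpart in the cytosol, had 553 and 466 CPM in DGY1743, against 175 and 168 in DGY1726, 161 and 190.3 in DGY1735, and 463 and 338 in DGY1741 (log2 ratio 1.15 ± 0.12 SE, edgeR adjusted p = 4.4e-05), with DGY1741 next below DGY1743. Of the other aminotransferases of both kinds, ARO8 was called higher (log2 ratio 0.66 ± 0.11 SE, edgeR adjusted p = 0.0022) with one DGY1743 library inside the range of DGY1741, and BAT1, the mitochondrial branched-chain form, was not called (log2 ratio -0.08 ± 0.11 SE, edgeR adjusted p = 0.64). CPA1, a subunit of the carbamoyl phosphate synthetase of arginine synthesis, was lower, at 612 and 747 CPM in DGY1743, against 1394 and 1574 in DGY1726, 1101 and 1104 in DGY1735, and 926 and 1084 in DGY1741 (log2 ratio -0.80 ± 0.12 SE, edgeR adjusted p = 8.8e-04). Without DGY1735 replicate 2, 11 of the 60 were lower, without DGY1743 replicate 1, 9, without either DGY1741 library, 3, and without DGY1743 replicate 2, 1.

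The proteasome is the protease complex that degrades ubiquitin-tagged proteins. Of its 34 tested genes 16 were higher by a small amount, 18 were not called and none was lower, against 12.2% higher and 7.29% lower among all tested genes. All 16 stood above every other library (7.83% of all tested genes were called higher and stood above). A positive log2 ratio was found in 31 of the 34, with a median of 0.28. RPN10, a ubiquitin receptor of the regulatory particle, had 147 and 148 CPM in DGY1743, against 98.5 and 90.4 in DGY1726, 99.4 and 103 in DGY1735, and 120.0 and 128 in DGY1741 (log2 ratio 0.48 ± 0.08 SE, edgeR adjusted p = 0.0023). PRE2, a catalytic subunit of the core particle, had 293 and 326 CPM in DGY1743, against 191 and 191 in DGY1726, 255 and 260.4 in DGY1735, and 235 and 213 in DGY1741 (log2 ratio 0.47 ± 0.08 SE, edgeR adjusted p = 0.0027). RPN8, of the lid, had 404 and 531 CPM in DGY1743, against 297 and 307 in DGY1726, 364 and 373 in DGY1735, and 361 and 335 in DGY1741 (log2 ratio 0.47 ± 0.10 SE, edgeR adjusted p = 0.0099). The difference from DGY1735 was the smallest, with a median of 0.22 and 3 genes called, against 0.34 and 18 genes for DGY1726 and 0.35 and 14 genes for DGY1741. PRE2 and RPN8 had adjusted p-values of 0.059 and 0.19 without DGY1743 replicate 2. The count of 16 was 3 without DGY1743 replicate 2, 10 without DGY1726 replicate 1 or DGY1741 replicate 2, and 0 with the 6 other libraries as 1 group.

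Proteasome genes share an upstream element, GGTGGCAAA, through which Rpn4 is known to activate them. In the R64 genome sequence, 27 of the 34 tested proteasome genes held this motif on either strand within 250 bases before to 50 bases after the start of the coding sequence, against 1.35% of the promoters of all 5402 tested genes. The motif was present in 12 of the 16 higher genes and in 15 of the 18 that were not called, so the list held it whether or not a gene passed the test. Over all 657 higher genes it was in 2.28% of promoters, and it was in none of the 394 lower ones. The 6 called genes with the largest log2 ratio that held it are shown in the direction of the gene, with the motif in capitals and 10 bases on either side. In PRE6 and RPT1 it lies on the opposite strand and reads TTTGCCACC.
PRE2 (chrXVI:732184-732212, plus strand): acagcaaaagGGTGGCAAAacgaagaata
PUP3 (chrV:349511-349539, minus strand): tggcactgccGGTGGCAAAaaagtgcaaa
RPN11 (chrVI:153259-153287, plus strand): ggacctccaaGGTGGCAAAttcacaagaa
PRE6 (chrXV:255218-255246, plus strand): cgaagattctTTTGCCACCggaagggaaa
RPT1 (chrXI:174048-174076, plus strand): attaccgaatTTTGCCACCcgaaaactaa
RPT5 (chrXV:544855-544883, plus strand): gccaatatgtGGTGGCAAAaatgaattaa

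The same search was run for CACGTG, the site of Cbf1 in sulfur genes, and for GATAAG, the site of GATA factors, both picked, like the Rpn4 motif, after the lists had been seen. CACGTG was in 7 of the 28 sulfur promoters, against 3.02% of all tested promoters. It was in only 2 of the 11 higher genes, MET14 and MET16, and in 5 of the 17 not called. GATAAG was in 15 of the 33 nitrogen promoters (45.5%), against 14.8% of all. It was in 5 of the 14 higher genes and in 9 of the 17 not called, so within the list it did not go with the call. Over all higher genes GATAAG was in 21.9% of promoters, and over all lower genes in 11.2%. The MET14 and MET16 sites and, of the GATA sites, those of PUT1 and PUT2, which lie on the opposite strand and read CTTATC, were as follows.
MET14 (chrXI:439598-439623, minus strand): ccactaatttCACGTGatcaatatat
MET16 (chrXVI:877795-877820, minus strand): atcatcatttCACGTGgctagtaaaa
PUT1 (chrXII:424971-424996, plus strand): cgctatttccCTTATCatctcattat
PUT2 (chrVIII:181778-181803, plus strand): agtaacaatgCTTATCtacgccatcg

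For 4 further motifs the shares among higher and lower genes lay within a few percentage points of that of all promoters. CCAAT, bound by the Hap complex that activates respiratory genes, was in 43.1% of the promoters of higher genes and 44.7% of those of lower genes, against 44.3% of all. GTCAC (Rtg1 and Rtg3) was in 25.3% and 25.6%, against 26.8%, ATTGTT (Rox1) in 32.0% and 36.0%, against 34.6%, and AGGGG (Msn2 and Msn4) in 24.8% and 20.3%, against 21.7%. Single lists departed more. CCAAT was in 9 of the 10 promoters of the nuclear complex IV genes, in 5 of the 5 higher ones and 4 of the 5 not called. ATTGTT was in 7 of these 10 and in 20 of the 33 nitrogen promoters (60.6%). Among the nitrogen genes it was in 8 of the 14 higher and in 11 of the 17 not called. TGCACCC (Aft1) and TCCGNGGA (Pdr1 and Pdr3) were rare, in 1.17% and 1.20% of all promoters. A match states only that these letters lie in the window.

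Nuclear genes of the respiratory chain were higher in DGY1743 for some subunits and not for most. Of the 10 nuclear subunits of complex IV, cytochrome c oxidase, 5 were higher, all above every other library, and none lower, with a median of 0.27. The shares among all tested genes were 12.2% higher, 7.83% higher and above every other library, and 7.29% lower. COX7 had 41.8 and 38.2 CPM in DGY1743, against 23.1 and 26.2 in DGY1726, 23 and 27.6 in DGY1735, and 23.9 and 27.5 in DGY1741 (log2 ratio 0.67 ± 0.13 SE, edgeR adjusted p = 0.0039). COX26, a subunit of the supercomplex, had 69.2 and 68.7 CPM in DGY1743, against 37.9 and 43.8 in DGY1726, 42.1 and 41.4 in DGY1735, and 55.3 and 58.5 in DGY1741 (log2 ratio 0.58 ± 0.10 SE, edgeR adjusted p = 0.0019). COX9 (0.43 ± 0.08, SE), COX5A (0.37 ± 0.10) and COX12 (0.30 ± 0.09) were the others. COX5B, the form of subunit 5 made in low oxygen, lies on chromosome IX, whose tested genes had a median log2 ratio of -0.27 (described below). It had 99.3 and 100.1 CPM in DGY1743, against 111 and 123 in DGY1726, 127 and 143 in DGY1735, and 116 and 109 in DGY1741. It lay below every other library without passing the test (log2 ratio -0.28 ± 0.09 SE, edgeR adjusted p = 0.052; without DGY1735 replicate 1, 0.049). COX5A was not called without DGY1743 replicate 1 (adjusted p = 0.17) or DGY1741 replicate 1 (0.052), nor was COX12 without any 1 of 5 libraries (0.062 to 0.13).

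In complex III with cytochrome c, 4 of 11 genes were higher and none lower, against 12.2% and 7.29% of all tested genes. The medians were 0.22, 0.0026 and 0.35 against DGY1726, DGY1735 and DGY1741. QCR8 had 169 and 228 CPM in DGY1743, against 105 and 120.3 in DGY1726, 145 and 147 in DGY1735, and 109 and 108 in DGY1741 (log2 ratio 0.71 ± 0.11 SE, edgeR adjusted p = 8.3e-04). QCR7 had 206 and 210.0 CPM in DGY1743, against 136 and 128 in DGY1726, 175 and 187 in DGY1735, and 158 and 157 in DGY1741 (log2 ratio 0.42 ± 0.08 SE, edgeR adjusted p = 0.0038). CYC7, the minor form of cytochrome c, was called higher (log2 ratio 0.62 ± 0.13 SE, edgeR adjusted p = 0.0056), but the ratio rested on DGY1741: it had 35.4 and 41.3 CPM in DGY1743, against 29.98 and 36 in DGY1726, 43.2 and 45.4 in DGY1735, and 9.97 and 11.3 in DGY1741. CYC1, the major form, had 37.1 and 26.9 CPM in DGY1743, against 43 and 45.6 in DGY1726, 43.9 and 39 in DGY1735, and 33.9 and 31.7 in DGY1741 and was not called (log2 ratio -0.29 ± 0.14 SE, edgeR adjusted p = 0.16). Of 16 ATP synthase genes 4 were higher, led by TIM11, with 130.2 and 141 CPM in DGY1743, against 93.6 and 96.8 in DGY1726, 109.6 and 116 in DGY1735, and 78.9 and 78.1 in DGY1741 (log2 ratio 0.52 ± 0.08 SE, edgeR adjusted p = 0.0013). Without DGY1743 replicate 2, the counts were 4 for complex IV, 2 for complex III and 1 for ATP synthase, and without DGY1743 replicate 1 or DGY1741 replicate 1 complex IV had 3. CYC7 had an adjusted p of 0.085 without DGY1743 replicate 2, and CYC1 was called lower without DGY1743 replicate 1 (0.035).

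The nuclear genes that maintain, transcribe and translate the mitochondrial genome showed little difference. None of 12 genes of mitochondrial DNA maintenance and transcription was called, and RPO41, the mitochondrial RNA polymerase, had 364 and 435 CPM in DGY1743, against 392 and 408 in DGY1726, 531 and 479.8 in DGY1735, and 445 and 392 in DGY1741 (log2 ratio -0.14 ± 0.10 SE, edgeR adjusted p = 0.38). Of 71 mitochondrial ribosomal protein genes 4 were higher and none lower, against 12.2% and 7.29% of all tested genes, with a median of -0.0046. RSM10 was the exception in size, with 249 and 266 CPM in DGY1743, against 145 and 147 in DGY1726, 142 and 164 in DGY1735, and 179 and 173 in DGY1741 (log2 ratio 0.71 ± 0.08 SE, edgeR adjusted p = 1.4e-04). Of 24 genes of mitochondrial RNA translation and processing 1 was called, of 26 assembly factors 1, and of 4 genes of complex II none. In protein import, TIM23, the core of the inner membrane translocase, was lower, with 50.8 and 35.4 CPM in DGY1743, against 78.7 and 71.1 in DGY1726, 63 and 61.6 in DGY1735, and 57.6 and 63.7 in DGY1741 (log2 ratio -0.61 ± 0.14 SE, edgeR adjusted p = 0.01), as was TIM10 (-0.35 ± 0.10, SE). Neither was called without DGY1743 replicate 2 (adjusted p = 0.10 and 0.16), and TIM10 was not called without DGY1743 replicate 1 (0.072) or DGY1741 replicate 2 (0.066) either. The ribosomal count was 1 without DGY1743 replicate 2, 6 without replicate 1, with 2 lower, and 2 without either DGY1741 library.

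Few of the retrograde genes were called. Of 12, 2 were higher and 1 lower, against 12.2% and 7.29% of all tested genes. A positive log2 ratio was found in 11 of the 12, with a median of 0.22. The medians were 0.23, 0.26 and 0.05 against DGY1726, DGY1735 and DGY1741. ACO1, the aconitase of the tricarboxylic acid cycle, had 768 and 706 CPM in DGY1743, against 575 and 577 in DGY1726, 592 and 579.7 in DGY1735, and 410.2 and 349.5 in DGY1741 (log2 ratio 0.55 ± 0.09 SE, edgeR adjusted p = 0.002). IDH2, a subunit of isocitrate dehydrogenase, had 86.3 and 75.5 CPM in DGY1743, against 67.8 and 70.1 in DGY1726, 61.8 and 48.7 in DGY1735, and 40.9 and 44.6 in DGY1741 (log2 ratio 0.57 ± 0.11 SE, edgeR adjusted p = 0.0046). PYC1, a pyruvate carboxylase, had 1653 and 1449 CPM in DGY1743, against 2341 and 2524 in DGY1726, 1951 and 2195 in DGY1735, and 2432 and 2442 in DGY1741 (log2 ratio -0.57 ± 0.12 SE, edgeR adjusted p = 0.006). In each of these 3 genes DGY1743 stood outside the range of all 6 other libraries. CIT2, the peroxisomal citrate synthase and usual marker of the response, was not called: it had 722 and 1035 CPM in DGY1743, against 873 and 343 in DGY1726, 279.8 and 424 in DGY1735, and 1716 and 1477 in DGY1741, with DGY1741 highest and the replicates of DGY1726 far apart (log2 ratio 0.33 ± 0.27 SE, edgeR adjusted p = 0.42). DLD3, RTG1, RTG2 and RTG3 were not called either, with log2 ratios of 0.32, 0.03, 0.25 and 0.12. Without DGY1726 replicate 1, CIT2 was called higher (0.60, adjusted p = 0.028) and the count was 4, and without DGY1743 replicate 2 PYC1 was not called (adjusted p = 0.067).

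Of 15 genes of pleiotropic drug resistance 5 were higher and none lower, against 12.2% and 7.29% of all tested genes. The medians were 0.01, -0.08 and 0.47 against DGY1726, DGY1735 and DGY1741, with 5, 4 and 10 genes higher and 0, 1 and 0 lower. With the 6 other libraries as 1 group, 2 of the 15 were higher. After RTA1 came ICT1, an acyltransferase, with 111 and 96.8 CPM in DGY1743, against 39.9 and 42.2 in DGY1726, 29.3 and 37.8 in DGY1735, and 38.1 and 37.5 in DGY1741 (log2 ratio 1.47 ± 0.11 SE, edgeR adjusted p = 3.0e-06), and PDR12, the exporter of weak organic acids, with 883 and 596 CPM in DGY1743, against 332 and 282 in DGY1726, 389 and 372 in DGY1735, and 210.4 and 461 in DGY1741 (log2 ratio 1.12 ± 0.22 SE, edgeR adjusted p = 0.0042). CIS1 and PDR16 were the other members called. PDR5, the main drug efflux pump, lay above the other libraries with 1515 and 1418 CPM in DGY1743, against 1260.3 and 1376 in DGY1726, 1203 and 1385 in DGY1735, and 1021 and 895 in DGY1741 and did not pass the test (log2 ratio 0.32 ± 0.11 SE, edgeR adjusted p = 0.058). The count was 3 without either DGY1743 library, RTA1 then falling under the minimum mean count. PDR12 was not called without DGY1743 replicate 1 (adjusted p = 0.071), and PDR5 was called without DGY1735 replicate 2 (0.044).

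Genes that respond to oxygen and heme were split, with 6 of 24 higher and 4 lower, against 12.2% and 7.29% of all tested genes. ROX1, the repressor of hypoxic genes, had 51.5 and 55.1 CPM in DGY1743, against 136 and 163 in DGY1726, 177 and 111 in DGY1735, and 83.3 and 92.9 in DGY1741 (log2 ratio -1.22 ± 0.16 SE, edgeR adjusted p = 3.9e-04). MGA2, an activator of the fatty acid desaturase gene and of hypoxic genes, was lower too, with 116 and 144 CPM in DGY1743, against 186 and 219.6 in DGY1726, 248 and 235 in DGY1735, and 279.9 and 299.8 in DGY1741 (log2 ratio -0.90 ± 0.11 SE, edgeR adjusted p = 2.0e-04). YHB1, a flavohaemoglobin that detoxifies nitric oxide, had 96.4 and 93.5 CPM in DGY1743, against 43.3 and 38.1 in DGY1726, 36.7 and 27.2 in DGY1735, and 61.1 and 50.8 in DGY1741 (log2 ratio 1.19 ± 0.12 SE, edgeR adjusted p = 4.0e-05). HEM13, a target of Rox1 in heme synthesis, had 72.6 and 68.3 CPM in DGY1743, against 54.9 and 53.2 in DGY1726, 66.4 and 62.5 in DGY1735, and 48.6 and 47.6 in DGY1741 (log2 ratio 0.35 ± 0.09 SE, edgeR adjusted p = 0.021), while ANB1, another Rox1 target, was lower (log2 ratio -0.78 ± 0.24 SE, edgeR adjusted p = 0.041) and overlapped the other libraries. HAP4, the activating subunit of the Hap complex, had 68.3 and 92.9 CPM in DGY1743, against 73.6 and 85.6 in DGY1726, 189.7 and 72.1 in DGY1735, and 83 and 107 in DGY1741, DGY1735 replicate 1 standing apart, and was not called (log2 ratio -0.30 ± 0.27 SE, edgeR adjusted p = 0.47). With DGY1743 replicate 2 left out 1 gene was higher, and with replicate 1 left out 3. HEM13 was not called without either (adjusted p = 0.072 and 0.097) or without DGY1735 replicate 2 (0.051), when HAP4 was called lower (-0.50, 0.011). ANB1 was not called without any 1 of 5 libraries (0.052 to 0.25).

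**Figure D2:**
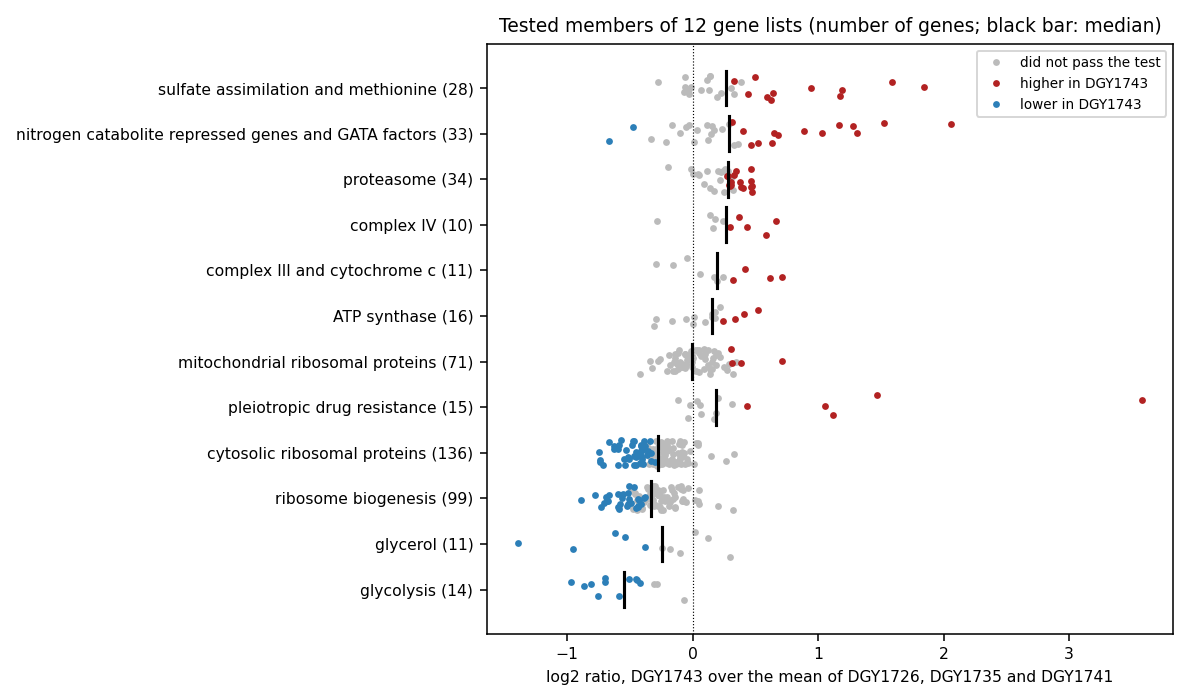
Log2 ratio of DGY1743 over the mean of the other 3 strains for each tested member of 12 gene lists; each point is a gene, red where higher, blue where lower and grey where it did not pass the test, and the black bar is the median. The sulfur, nitrogen and proteasome lists lie to the right (medians 0.27, 0.29 and 0.28) and the glycolysis, ribosome biogenesis and ribosomal protein lists to the left (-0.55, -0.33 and -0.27).

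Glycolysis was lower in DGY1743 almost throughout. Of its 14 tested genes 11 were lower and none higher (7.29% and 12.2% of all tested genes). Of the 11, 10 lay below every other library (4.76% of all tested genes were called lower and lay below). All 14 had a negative log2 ratio, with a median of -0.55. This held against each strain, with medians of -0.56, -0.62 and -0.45 against DGY1726, DGY1735 and DGY1741. TDH2, one of 3 genes for glyceraldehyde-3-phosphate dehydrogenase, had 1366 and 1059.8 CPM in DGY1743, against 2662 and 2940.4 in DGY1726, 2739.7 and 2339 in DGY1735, and 1784 and 1997 in DGY1741 (log2 ratio -0.97 ± 0.14 SE, edgeR adjusted p = 6.0e-04). TDH3, the most abundant of the 3, had 2756 and 2109 CPM in DGY1743, against 4752 and 5527 in DGY1726, 4640.2 and 4646 in DGY1735, and 3068 and 3437 in DGY1741 (log2 ratio -0.81 ± 0.15 SE, edgeR adjusted p = 0.0029). TDH1 was lower as well (log2 ratio -0.87 ± 0.14 SE, edgeR adjusted p = 0.0016), but DGY1741 was at the same level, with 589 and 421 CPM in DGY1743, against 1356 and 1631 in DGY1726, 1118 and 983 in DGY1735, and 472 and 523 in DGY1741. These copies, like ENO1 and ENO2, share stretches of at least a read's length, so reads may be split between them. The other genes called were PGK1, ENO1, ENO2, CDC19, FBA1, PFK2, GPM1 and TPI1, with log2 ratios of -0.76 (ENO2) to -0.42 (TPI1). PGK1, which has no such copy, had 4155 and 3912 CPM in DGY1743, against 6654 and 7774 in DGY1726, 8117 and 7644 in DGY1735, and 4812 and 5091 in DGY1741 (log2 ratio -0.70 ± 0.14 SE, edgeR adjusted p = 0.0047). The count was 4 without DGY1743 replicate 2 and 0 with the 6 other libraries as 1 group.

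Of 17 tested genes of fermentation and acetaldehyde 3 were lower and none higher, against 7.29% and 12.2% of all tested genes, with a median of -0.006. ADH1, the main fermentative alcohol dehydrogenase, had 3878 and 3635 CPM in DGY1743, against 5803 and 6307 in DGY1726, 6905 and 5794 in DGY1735, and 6467 and 6451 in DGY1741 (log2 ratio -0.74 ± 0.14 SE, edgeR adjusted p = 0.0034). ADH2, which oxidises ethanol, had 514 and 398 CPM in DGY1743, against 751 and 734 in DGY1726, 817 and 712 in DGY1735, and 816 and 798 in DGY1741 (log2 ratio -0.76 ± 0.12 SE, edgeR adjusted p = 0.0011). ALD4, a mitochondrial aldehyde dehydrogenase, had 337 and 318 CPM in DGY1743, against 456 and 551 in DGY1726, 446 and 489 in DGY1735, and 507 and 482 in DGY1741 (log2 ratio -0.58 ± 0.10 SE, edgeR adjusted p = 0.0028). All 3 lay below every other library in DGY1743. The other 14 were not called, among them the pyruvate decarboxylase genes PDC1 (log2 ratio -0.07 ± 0.15 SE, edgeR adjusted p = 0.76), PDC5 (0.20) and PDC6 (0.36). PDC6 was called higher without DGY1726 replicate 2 (adjusted p = 0.036) or DGY1735 replicate 2 (0.020).

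Genes of both steps of glycerol synthesis were lower, whereas the glycerol list as a whole differed little from DGY1741. The medians of its 11 tested genes were -0.53, -0.58 and -0.03 against DGY1726, DGY1735 and DGY1741. Against these strains singly 1, 0 and 3 genes were higher and 7, 8 and 2 lower. With the 6 other libraries as 1 group 1 gene was lower. The shares among all tested genes in the main comparison were 12.2% higher and 7.29% lower. GPP1 (chrIX:255115-255867, plus strand), the main glycerol-3-phosphatase, had 224 and 218 CPM in DGY1743, against 691 and 814 in DGY1726, 819 and 592 in DGY1735, and 329.9 and 400.0 in DGY1741 (log2 ratio -1.39 ± 0.14 SE, edgeR adjusted p = 4.4e-05). GPD2, the glycerol-3-phosphate dehydrogenase that is induced when NADH builds up, had 111 and 109 CPM in DGY1743, against 227 and 252 in DGY1726, 231 and 164 in DGY1735, and 195 and 215 in DGY1741 (log2 ratio -0.95 ± 0.13 SE, edgeR adjusted p = 3.6e-04). In both genes DGY1743 was below all 6 others. The stress-induced copies did not separate in this way: GPP2 (log2 ratio -0.62 ± 0.18 SE, edgeR adjusted p = 0.034) and GPD1 (-0.54 ± 0.12, SE) were called lower, but they overlapped other libraries, GPP2 having 112 and 62 CPM in DGY1743, against 44.9 and 46.0 CPM in DGY1741. In all 5 of 11 glycerol genes were lower and none higher, and 2 were lower without DGY1743 replicate 2. GPP2 and GPD1 were then not called (adjusted p = 0.28 and 0.12), and GPP2 was not called without either DGY1741 library (0.076 and 0.088).

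Among the other genes lowest in DGY1743 were FUR4, the uracil permease, with 60.9 and 52.3 CPM in DGY1743, against 148 and 107 in DGY1726, 128 and 107 in DGY1735, and 131 and 131 in DGY1741 (log2 ratio -1.15 ± 0.14 SE, edgeR adjusted p = 1.5e-04), and MAE1, the mitochondrial malic enzyme, with 185 and 167 CPM in DGY1743, against 507 and 396 in DGY1726, 449 and 277 in DGY1735, and 227 and 247 in DGY1741 (log2 ratio -0.95 ± 0.17 SE, edgeR adjusted p = 0.0025; without DGY1743 replicate 2, 0.052). CWP2, a cell wall mannoprotein, had 109 and 107 CPM in DGY1743, against 251 and 381 in DGY1726, 199.6 and 213 in DGY1735, and 157 and 158 in DGY1741 (log2 ratio -1.01 ± 0.14 SE, edgeR adjusted p = 4.2e-04). TIP1, of the same family, had 22.9 and 21.8 CPM in DGY1743, against 43.8 and 49.2 in DGY1726, 24.4 and 25.3 in DGY1735, and 79.2 and 82.6 in DGY1741 (log2 ratio -1.02 ± 0.12 SE, edgeR adjusted p = 8.5e-05), with DGY1735 only just above DGY1743. SNU13, a protein of the spliceosome and of small nucleolar particles, and RHO5, a small GTPase, had log2 ratios of -1.10 and -0.97. YNL179C, a dubious open reading frame directly upstream of RHO5 on the same strand, had -0.98. YER137C had the lowest ratio of the genes below all other libraries (log2 ratio -1.92 ± 0.21 SE, edgeR adjusted p = 7.1e-05), with 5.45 and 3.57 CPM in DGY1743, against 117 and 115 in DGY1726, 9.73 and 6.42 in DGY1735, and 5.57 and 5.51 in DGY1741, so that it was far higher in DGY1726 alone. In DGY1726 the study places it at the edge of an amplified stretch, with a likely breakpoint inside the gene. The study describes its expression there as disrupted and left it out, as it did SAK1 at the other edge. Of the 8 tested genes of that amplified stretch of chromosome V, 6 were called lower, with a median of -0.61 overall and -1.53, -0.10 and -0.01 against DGY1726, DGY1735 and DGY1741.

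**Figure D3:**
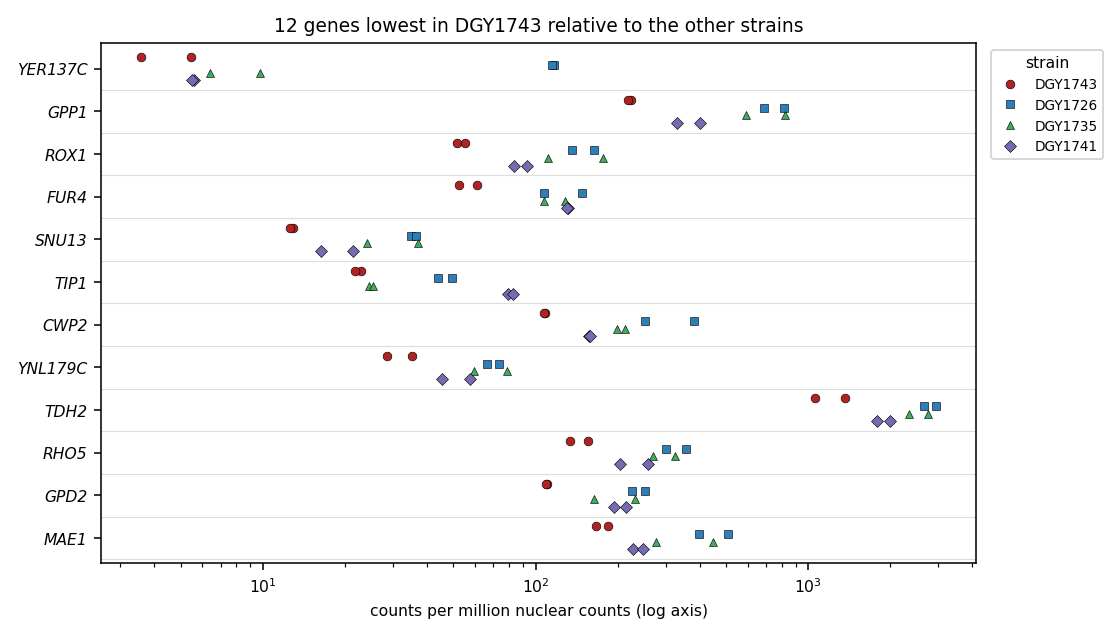
CPM over nuclear counts (log axis) in each of the 8 libraries for the 12 genes with the most negative log2 ratio among those called and below all other libraries; each point is 1 library, coloured by strain. The red DGY1743 points lie left of every other point in each row; for YER137C only the DGY1726 points, at 115 and 117 CPM, stand far from them.

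A minority of the genes of the cytosolic ribosome passed the test, all of them lower. Among all tested genes 7.29% were lower and 12.2% higher, and 4.76% were lower and below all other libraries. Of 136 ribosomal protein genes 44 were lower, 92 were not called and none was higher, with a median of -0.27, and 22 of the 44 lay below all other libraries. Of 99 ribosome biogenesis genes 29 were lower, 70 were not called and none was higher, with a median of -0.33, 21 of them below all others. RPL5, which binds the 5S ribosomal RNA, had 236 and 177 CPM in DGY1743, against 451 and 414 in DGY1726, 398 and 325 in DGY1735, and 254 and 277 in DGY1741 (log2 ratio -0.74 ± 0.13 SE, edgeR adjusted p = 0.002). NOP1, the methyltransferase of small nucleolar particles, had 48.5 and 53.4 CPM in DGY1743, against 105 and 125 in DGY1726, 108 and 86.8 in DGY1735, and 67.1 and 84.1 in DGY1741 (log2 ratio -0.89 ± 0.13 SE, edgeR adjusted p = 7.7e-04). MAK16, a factor of large subunit assembly, had 64.6 and 62.8 CPM in DGY1743, against 138 and 99 in DGY1726, 156 and 95.8 in DGY1735, and 76.3 and 81.2 in DGY1741 (log2 ratio -0.73 ± 0.18 SE, edgeR adjusted p = 0.014). In all 3 genes DGY1741 was the strain nearest to DGY1743. Against DGY1741 alone, the medians were -0.06 for ribosomal proteins and -0.12 for biogenesis, with 3 genes lower in each, and against DGY1726 and DGY1735 they were -0.36 and -0.39, and -0.39 and -0.52. With the 6 other libraries as 1 group none was called in either list. Without DGY1743 replicate 2 the counts of lower genes were 4 and 3, and MAK16 was not called without either DGY1743 library (adjusted p = 0.068 and 0.11). Without DGY1743 replicate 1 they were 36 and 4, without DGY1735 replicate 2 65 and 68, without DGY1741 replicate 2 20 and 11, and without DGY1741 replicate 1 36 and 14. Without DGY1726 replicate 1 biogenesis had 15, and without DGY1726 replicate 2 44.

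**Figure D4:**
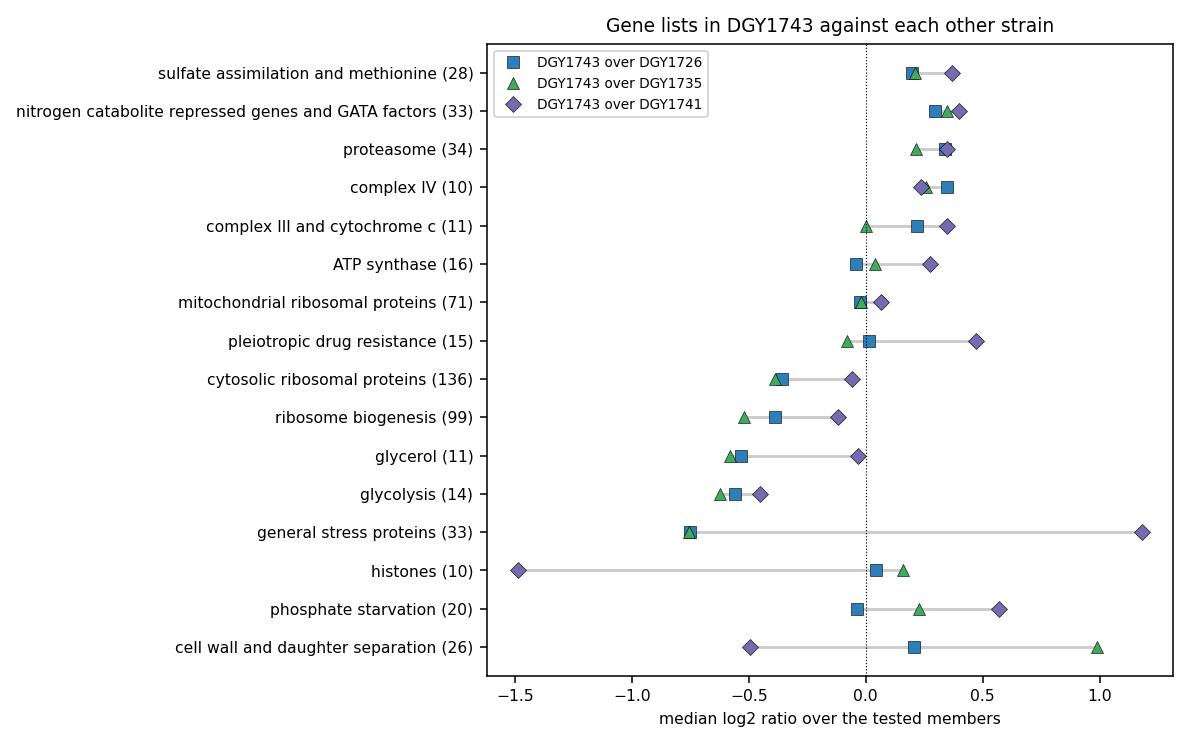
Median log2 ratio over the tested members of 16 gene lists for DGY1743 against each other strain; each symbol is 1 strain, and grey lines join the 3 values of a list. Sulfur, nitrogen, proteasome, complex IV and glycolysis lists keep their side of 0 against all 3 strains, whereas general stress proteins (-0.75, -0.76 and 1.18) and histones (0.04, 0.16 and -1.49) change side with DGY1741.

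For other lists the mean of the 3 strains hid opposite differences. Their counts stand beside 12.2% higher and 7.29% lower among all tested genes. General stress proteins had a median of -0.17, with 2 of 33 genes higher and 3 lower, but the median was -0.75 against DGY1726, -0.76 against DGY1735 and 1.18 against DGY1741, so DGY1743 lay between the strains. Histone genes, of which 6 of 10 were called lower, had medians of 0.04, 0.16 and -1.49. HTA1, for histone H2A, had 238 and 212 CPM in DGY1743, against 283 and 289 in DGY1726, 201 and 201 in DGY1735, and 614 and 738 in DGY1741 (log2 ratio -0.59 ± 0.10 SE, edgeR adjusted p = 0.002), DGY1743 overlapping the first pair of strains and lying far below DGY1741. Genes of the cell wall and daughter separation had medians of 0.21, 0.99 and -0.50. NCA3, of the SUN family of cell wall proteins, had the most negative log2 ratio of all tested genes, with 6.92 and 6.81 CPM in DGY1743, against 94.2 and 138 in DGY1726, 48.9 and 42.1 in DGY1735, and 6.11 and 10.00 in DGY1741 (log2 ratio -2.35 ± 0.23 SE, edgeR adjusted p = 2.9e-05), and DGY1741 was at the same low level. NQM1, a transaldolase of the stress response, was called lower (log2 ratio -0.53 ± 0.14 SE, edgeR adjusted p = 0.02), with 114 and 90.6 CPM in DGY1743, against 254 and 280.5 in DGY1726, 281 and 355 in DGY1735, and 42.9 and 32.2 in DGY1741, so that DGY1741 was lower than DGY1743. It was not called without DGY1743 replicate 2 (adjusted p = 0.20) or DGY1741 replicate 1 (0.050).

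Of 20 phosphate genes 9 were higher, 11 were not called and none was lower, against 12.2% higher and 7.29% lower among all tested genes. Against DGY1726, DGY1735 and DGY1741 singly 5, 4 and 11 were higher and 3, 1 and 0 lower, with medians of -0.04, 0.23 and 0.57. Of the 9, 3 stood above all other libraries: PHO89 and the acid phosphatase genes PHO12 (1.03 ± 0.13, SE) and PHO11 (0.96 ± 0.12). PHO11 and PHO12 are nearly identical and their reads cannot be told apart. PHO12 had 141 and 154 CPM in DGY1743, against 45.1 and 29 in DGY1726, 122 and 122 in DGY1735, and 88.5 and 79.3 in DGY1741, with DGY1726 lowest. The count was 6 without DGY1743 replicate 2 and 1 with the 6 other libraries as 1 group.

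In iron metabolism, 3 of 27 genes of the iron regulon were higher and 3 lower, against 12.2% and 7.29% of all tested genes. The median was 0.06, but it was 0.20, 0.18 and -0.19 against DGY1726, DGY1735 and DGY1741. Against these strains singly 5, 8 and 2 genes were higher and 2, 2 and 11 lower. FRE1, a ferric reductase of the plasma membrane, had 41.5 and 62.3 CPM in DGY1743, against 23.4 and 25.9 in DGY1726, 15 and 18.3 in DGY1735, and 35.1 and 23.5 in DGY1741 (log2 ratio 1.18 ± 0.18 SE, edgeR adjusted p = 7.7e-04). ENB1, a siderophore transporter, had 152 and 173 CPM in DGY1743, against 93.9 and 83.6 in DGY1726, 98.8 and 97.2 in DGY1735, and 121 and 84 in DGY1741 (log2 ratio 0.76 ± 0.12 SE, edgeR adjusted p = 0.0014). ISU1, the scaffold on which iron-sulfur clusters are built, was lower with 223 and 195 CPM in DGY1743, against 399.7 and 368 in DGY1726, 359 and 289.6 in DGY1735, and 284 and 305 in DGY1741 (log2 ratio -0.67 ± 0.11 SE, edgeR adjusted p = 0.0015). Of 20 iron-sulfur assembly genes 4 were lower, all of them below every other library, and 1 was higher. Besides ISU1 these were MET18 (-0.55 ± 0.09, SE), YAH1, a ferredoxin (-0.58 ± 0.16), and CIA1. The count of lower genes was 2 without either DGY1743 library, when YAH1 was not called (adjusted p = 0.050 and 0.16), and CIA1 was not called without any 1 of 7 libraries (0.063 to 0.21). In the iron regulon the counts were 5 and 1 without DGY1741 replicate 1 and 2 and 1 without DGY1743 replicate 2. In sterol synthesis 7 of 25 genes were higher and none lower, with medians of 0.28, 0.21 and 0.00 against DGY1726, DGY1735 and DGY1741. ERG27 had 256 and 268 CPM in DGY1743, against 138 and 133 in DGY1726, 145 and 144 in DGY1735, and 257 and 222 in DGY1741 (log2 ratio 0.65 ± 0.08 SE, edgeR adjusted p = 2.9e-04), and its level in DGY1741 overlapped that in DGY1743. Without either DGY1743 library the count was 4.

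Chromosome IX stood apart from the other chromosomes in DGY1743. The median log2 ratio of its 198 tested genes was -0.27 (a ratio of 0.832), whereas the medians of the other 15 chromosomes lay between -0.0049 and 0.03. Of the 198 genes 163 had a negative log2 ratio, 61 (30.8%) were called lower and 11 higher, against 6.40% and 12.4% of the 5204 genes of the other chromosomes, and 65 lay below all 6 other libraries. The chromosome median was -0.25 and -0.26 in the DGY1743 libraries, against 0.01 and 0.02 in DGY1726, 0.04 and 0.01 in DGY1735, and -0.07 and -0.05 in DGY1741, all relative to the mean of the other 3 strains. The difference was present against each strain, at -0.27, -0.30 and -0.22. In windows of 40 kb the 8 genes of the first window had a median of 0.12, and the 10 windows from there to the other end of the chromosome had medians of -0.43 to -0.14. DNA copy number of this chromosome was not analysed here. GPP1, COX5B, MET18, MGA2 and DAL81 lie on it, and the part of the chromosome-wide difference in their low levels was not tested.

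Genes of chromosome IX that were higher included DAL1, DAL3, DAL4 and DAL7 of the allantoin cluster near its end, picked out after their values were seen. DAL7, a malate synthase of allantoin breakdown, had 426 and 430.0 CPM in DGY1743, against 179 and 187 in DGY1726, 214 and 259.8 in DGY1735, and 229 and 196 in DGY1741 (log2 ratio 1.03 ± 0.10 SE, edgeR adjusted p = 2.0e-05). Without the genes of chromosome IX, 604 were called higher and 336 lower, and 937 of the 979 earlier calls on other chromosomes were made again.

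**Figure D5:**
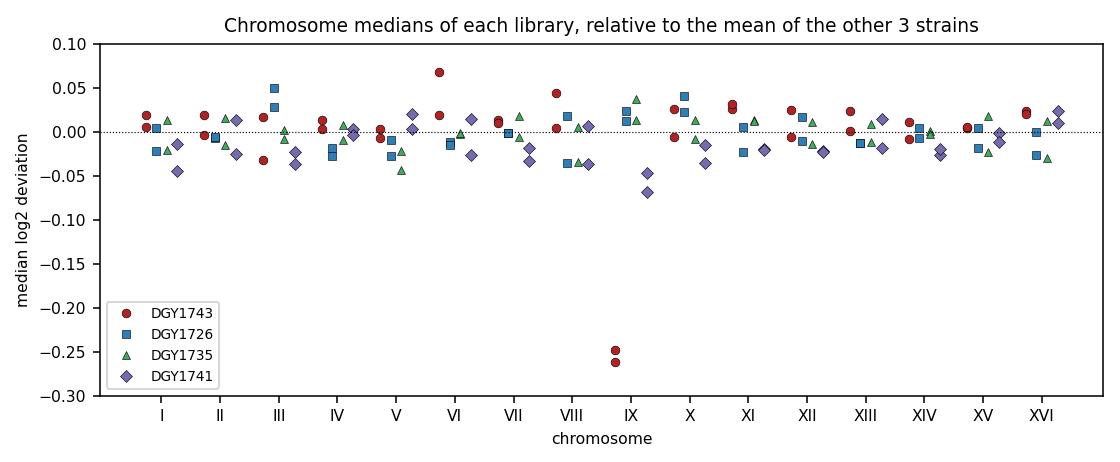
Median over the tested genes of each chromosome of the log2 CPM in a library, as a difference from the mean of DGY1726, DGY1735 and DGY1741; each symbol is 1 library. Both DGY1743 libraries are at -0.25 and -0.26 on chromosome IX, and no other library reaches that far from 0 on any chromosome.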

How the data were processed

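The deposited tables hold raw read counts per annotated feature in each of the 8 libraries, 2 per strain. Per the study's methods, the authors sequenced RNA as single reads of 50 bases without poly-A selection (the labels call it polyadenylated), removed rRNA, tRNA and snRNA reads, aligned the rest with STAR to R64 and counted with bedtools on the sense strand over the Ensembl annotation. The treatment of reads with several alignments is not given in the sources used here, and a read in overlapping features counts in each. Groups and replicate numbers came from the sample titles.

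Gene rows were used. Counts were scaled with TMM over the nuclear rows alone and fitted in edgeR (version 4.0.16, R version 4.3.3; glmQLFit and glmQLFTest) on all 8 libraries, with strain as the factor and the contrast of DGY1743 against the equal mean of the other 3 strains. Nuclear counts per library were 8683612 to 12630892, and replicates differed by 16.2 to 27.5 times the counting variance, so the small number of cultures limits precision. The SE of a log2 ratio is its size divided by the square root of F. DESeq2 1.42.0, other scalings, filters, thresholds, groupings and left-out libraries were alternatives. The method was tested on simulated data.

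The members and gene lists were chosen with earlier results of these data known. Named genes were the 12 largest log2 ratios in each direction among genes called and apart from all other libraries, up to 3 called genes per list by size, and 18 genes of interest; lists without a call gave their most abundant gene. Others were picked after their values were seen and are given as members of a list. Symbols missing from the files came from the RefSeq table of the same R64 build, which matched 832 of 1494. Promoter motifs were searched on both strands of the R64 reference.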

Additional observations from a re-analysis of the deposited data

Results flagged for a closer look

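Counts outside the comparison differed between DGY1743 and the other strains. DGY1743 was chosen on its mitochondrial share, so that share is a premise of the comparison and not a further result. The 28 mitochondrial protein-coding rows took 13.2% of the protein-coding counts in DGY1743 replicate 1 and 19.2% in replicate 2, against at most 0.0957% in the other 6 libraries. Rows of genes annotated as ncRNA, a class apart from rRNA, tRNA, snoRNA and snRNA, took 12.6% and 16.5% of all gene counts in the DGY1743 libraries (Wilson 95% intervals 12.58% to 12.62% and 16.50% to 16.54%), against 7.27% to 11.6% in the others. Both were set aside because neither entered the nuclear comparison, and their part in it was not tested.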

How the results depend on the processing

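Of the 1051 calls, 1015 were made again with DESeq2's size factors, 1011 with its Wald test and 1021 with mitochondrial and chromosome XI genes left in the scaling, all with the same sign. At an adjusted p under 0.01, 418 genes were called (312 higher, 106 lower), and 704, 602 and 600 against DGY1726, DGY1735 and DGY1741. With the 6 other libraries as 1 group 87 genes were called (81 and 6), and with counts summed per strain edgeR called 0 (0 and 0; 205 at an unadjusted p under 0.05). Without strain DGY1726, 239 genes were lower, and without DGY1741, 700. Leaving out 1 library gave 344 (without DGY1743 replicate 2) to 1228 genes (without DGY1735 replicate 2), 269 to 627 higher and 75 to 601 lower; for the single strains it gave 764 (without DGY1743 replicate 2) to 1580, 700 (without DGY1735 replicate 1) to 1267 and 554 (without DGY1741 replicate 1) to 1219. NQM1 reversed without strain DGY1735, to 0.023 on the log2 scale, and the cause was not tested. The replicate number as a block gave 1200 calls (711 higher, 489 lower), and 1629, 1386 and 1228 against the single strains. Same-numbered libraries deviated together only in part, with correlations of -0.22 to 0.405 between pairs of strains. For DGY1726 they were 0.304, 0.405 and 0.202 with DGY1735, DGY1741 and DGY1743. These values do not settle whether the number pairs the samples, and the main fit left it out. Medians of gene lists moved by less than the spread between the DGY1743 libraries in 759 recalculations and by more in 165. With 2 cultures of 1 clone per strain, differences are between clones.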

Other observations

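Some further gene groups differed in DGY1743. Their counts stand beside 12.2% higher and 7.29% lower among all tested genes. Of the glycine cleavage system, which feeds one-carbon units to purine synthesis, the 3 dedicated subunits GCV1, GCV2 and GCV3 were higher and LPD1, which it shares with other enzymes, was not called (log2 ratio -0.08 ± 0.10 SE, edgeR adjusted p = 0.64). GCV1 had 382 and 411 CPM in DGY1743, against 234 and 208 in DGY1726, 262 and 227 in DGY1735, and 182 and 205 in DGY1741 (log2 ratio 0.86 ± 0.09 SE, edgeR adjusted p = 6.5e-05). GCV3 had 337 and 336 CPM in DGY1743, against 190.2 and 186 in DGY1726, 203 and 202 in DGY1735, and 232 and 224 in DGY1741 (log2 ratio 0.71 ± 0.08 SE, edgeR adjusted p = 6.4e-05). GCV2 had a log2 ratio of 0.63 ± 0.11 (SE), and all 3 stood above the other libraries. Of the 20 tested genes of purine synthesis and its regulation 5 were higher and 1 lower (0 to 4 lower without any 1 library). IMD2, an IMP dehydrogenase with near-identical copies, was among them with 278 and 281 CPM in DGY1743, against 53.3 and 38.5 in DGY1726, 165 and 98.7 in DGY1735, and 346 and 381 in DGY1741 (log2 ratio 1.11 ± 0.16 SE, edgeR adjusted p = 5.2e-04), where DGY1741 was higher still. Of 9 early meiosis genes with enough counts 4 were higher. NDJ1, 1 of the 4, reached the minimum mean count only through its counts in DGY1743. After NDJ1 the largest was MND1, of the meiotic strand exchange machinery, with 22.7 and 26 CPM in DGY1743, against 10.3 and 11.2 in DGY1726, 7.48 and 9.63 in DGY1735, and 9.70 and 8.74 in DGY1741 (log2 ratio 1.36 ± 0.15 SE, edgeR adjusted p = 7.3e-05). Without DGY1743 replicate 2 the count was 2, and 11 of the 20 listed genes did not reach the minimum mean count.

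In autophagy and vacuolar proteolysis 7 of 31 genes were higher and none lower, against 12.2% and 7.29% of all tested genes. ATG8, the ubiquitin-like protein of the autophagosome membrane, had 137 and 120.4 CPM in DGY1743, against 79.4 and 76.3 in DGY1726, 80.7 and 97.7 in DGY1735, and 87.6 and 76.5 in DGY1741 (log2 ratio 0.63 ± 0.10 SE, edgeR adjusted p = 0.0014). Without DGY1743 replicate 2 the count was 2. Of 24 genes of the pheromone response 8 were higher and 1 lower (4 to 6 higher without any 1 library), led by the a-factor gene MFA1, with 46.2 and 48.9 CPM in DGY1743, against 15.9 and 22.7 in DGY1726, 12.6 and 12.9 in DGY1735, and 53.5 and 49.8 in DGY1741 (log2 ratio 1.03 ± 0.13 SE, edgeR adjusted p = 2.6e-04), for which DGY1741 was at the level of DGY1743. HXT2, a glucose transporter of high affinity, had 344 and 355 CPM in DGY1743, against 61.8 and 60.6 in DGY1726, 235 and 69.8 in DGY1735, and 248 and 159.7 in DGY1741 (log2 ratio 1.5 ± 0.29 SE, edgeR adjusted p = 0.0045), with the replicates of DGY1735 far apart. Its adjusted p was 0.057 without DGY1743 replicate 2. The cell wall gene HSP150 had 283 and 273 CPM in DGY1743, against 121 and 162 in DGY1726, 75.6 and 69.4 in DGY1735, and 232 and 207 in DGY1741 (log2 ratio 1.09 ± 0.11 SE, edgeR adjusted p = 2.9e-05). Mitochondrial carriers were higher in 5 of 23 cases and lower in 1 (1 and 1 without DGY1743 replicate 2, 3 and 0 without replicate 1). YHM2, which exchanges citrate and oxoglutarate, had 469.6 and 588 CPM in DGY1743, against 369 and 324 in DGY1726, 303 and 358 in DGY1735, and 438 and 375 in DGY1741 (log2 ratio 0.56 ± 0.11 SE, edgeR adjusted p = 0.006; without DGY1743 replicate 2, 0.13).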
